A study of Mus musculus with 20 samples.

Results

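The subject here is the effect of chronic stress that female and male mice had in common in 1 forebrain region, the bed nucleus of the stria terminalis, anterodorsal part. It was measured as the mean of the stress contrast in females and the stress contrast in males, over all 20 libraries of the series, 5 in each of 4 groups. The groups were control females, stressed females, control males and stressed males, all of 1 tissue; the labels name neither a strain nor an allele. Stressed mice went through chronic variable mild stress, a schedule of changing minor stressors over 6 weeks, begun at 7 to 9 weeks of age. Among the stressors were nights with the lights on and hours of darkness in the light phase. Tissue was taken under ketamine 1 hour after the last stressor, which was wet bedding, and the hour of day is not given in the sources used here. Each group had 15 mice, and RNA came from pools of 3 mice, so the libraries vary less than individual mice would.

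The bed nucleus of the stria terminalis is part of the extended amygdala and lies next to the striatum, the septum, the preoptic area and the thalamus. Most of its neurons release GABA, and many also make peptides such as enkephalin (Penk) and corticotropin-releasing hormone (Crh). It is known for its part in sustained anxiety-like states and in the control of the stress hormone axis. Cells of this tissue also run a molecular clock: CLOCK (or NPAS2) and BMAL1 bind E-box elements of DNA and turn on the Per and Cry genes, whose proteins shut the pair off again. The same pair drives output genes such as Dbp, Tef and Bhlhe41, and DBP, TEF and HLF are themselves related transcription factors of the PAR bZIP family. REV-ERB and ROR receptors act on another element and link the loop to further genes.

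Total counts ran from 2.71 M (mega) to 33.6 M per library, with a median of 15.6 M and group means from 13.7 M to 22.1 M. The spread of a typical gene between libraries of a group, the biological coefficient of variation, was 8.83%. Transcripts of sex-linked genes matched the label in 20 of 20 libraries. Female stressed 2 stood apart on marker lists. It had the highest score of the 20 libraries on those for thalamic, hypothalamic and preoptic neurons, astrocytes and choroid plexus. The list counts and the genes the results turn on are therefore given with and without it. By measures over all genes, female control 4, the shallowest library (2.71 M), stood further apart. It was the highest or lowest library in 23.3% of genes, against 6.17% for female stressed 2. Mean correlation with the own group was 0.986 for female control 4 and 0.990 for female stressed 2, the lowest of the stressed females. The labels say there were no outliers. Scores average log2 CPM (counts scaled to a common library size) over the genes of a list and are centred on 0 across libraries.

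No gene passed in the mean of both contrasts with 20 libraries: 0 of 12988 were called at an adjusted p under 0.05 (edgeR quasi-likelihood test, adjusted by Benjamini-Hochberg over all genes), a background of 0%. At an unadjusted p under 0.05 there were 1653 genes (12.7%), of which 968 (7.45%) were higher and 685 (5.27%) lower in stressed mice. Of these, 1523 (11.7% of all genes) had the same sign in both pairs, 874 higher (6.73%) and 649 lower (5%). In 81 genes (0.624%) the unadjusted p was under 0.05 in each pair alone with the same sign, 52 higher (0.4%) and 29 lower (0.223%), and in 45 further genes it was under 0.05 in each with opposite signs. Over all genes, 52.5% had the same sign in both pairs. Without female stressed 2, 150 genes were called (1.15%), 118 higher (0.909%) and 32 lower (0.246%). The genes with an unadjusted p under 0.05 and one sign in both pairs then numbered 2252 (17.3%), 1236 higher (9.52%) and 1016 lower (7.82%), and 256 (1.97%; 1.21% higher and 0.762% lower) had it in each pair alone. By DESeq2, 14 genes were called with all 20 libraries and 437 without female stressed 2.

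**Figure D1:**
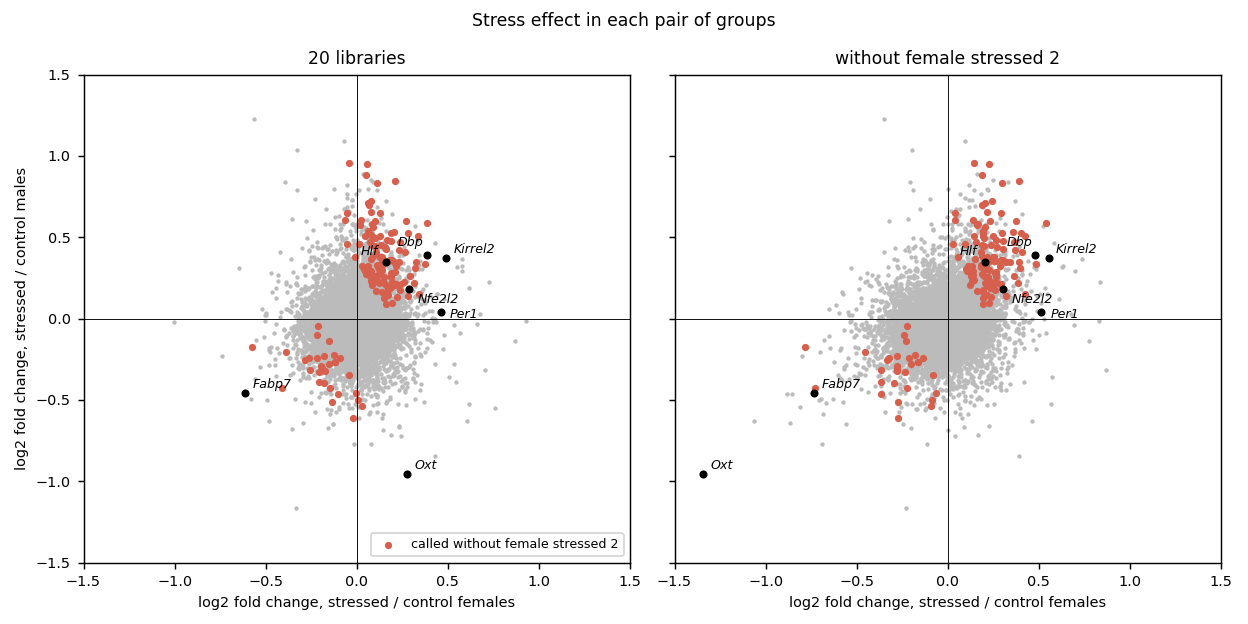
Each point is a gene, with its log2 fold change of stressed over control in females (x axis) and in males (y axis), with 20 libraries on the left and without female stressed 2 in the females on the right; red points are the 150 genes called without that library. In the right panel the red points have the same sign in females as in males, which follows in part from how they were chosen. On the left several sit near 0 in females. Uty lies outside both panels and Pvalb outside the right one.

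Output genes of the molecular clock were among the genes with the smallest p. An adjusted p under 0.10, equal to 0.0530 each, was found for 6 genes: Bhlhe41, Tef, Dbp, Kirrel2 and Nfe2l2 were higher in stressed mice and Fabp7 was lower. Bhlhe41, Tef and Dbp are clock output genes, and the next smallest p belonged to Hlf, the third PAR bZIP gene. In the list of clock output genes, 8 of the 15 measured had an unadjusted p under 0.05 and were higher in both pairs, and 0 were lower. The shares over all genes were 6.73% and 5%, and the list's members were chosen with earlier results of these data known. The median log2 fold change of the 15 was 0.19 over both pairs, 0.21 in females and 0.13 in males, where the median of all genes was -0.0055. The direction was higher in both pairs for 12 of the 15 (24.8% of all genes), and it differed between the pairs for Nfil3, Per3 and Tsc22d3. Without female stressed 2, 4 of the 15 were called higher (Dbp, Tef, Hlf and Bhlhe41), where the share over all genes was 0.909%. By the unadjusted rule 8 were again higher in both pairs and 0 lower, with a median of 0.22. The shares over all genes were then 9.52% and 7.82%.

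The start regions of 4 clock output genes are shown because the clock's activators bind E-boxes. Each window below runs from 250 bases before to 50 bases after the annotated start (RefSeq, GRCm38.p6), written 5′ to 3′ on the gene's strand. Capitals mark the E-box searched, CACGTG, which reads the same on both strands.
Dbp, chr7:45704997-45705296, plus strand: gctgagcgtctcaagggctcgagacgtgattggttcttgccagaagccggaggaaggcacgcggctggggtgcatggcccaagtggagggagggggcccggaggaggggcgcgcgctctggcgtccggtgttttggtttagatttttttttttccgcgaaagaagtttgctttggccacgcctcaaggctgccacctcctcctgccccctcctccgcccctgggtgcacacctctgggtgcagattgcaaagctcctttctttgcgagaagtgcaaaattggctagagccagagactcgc
Tef, chr15:81802423-81802722, plus strand: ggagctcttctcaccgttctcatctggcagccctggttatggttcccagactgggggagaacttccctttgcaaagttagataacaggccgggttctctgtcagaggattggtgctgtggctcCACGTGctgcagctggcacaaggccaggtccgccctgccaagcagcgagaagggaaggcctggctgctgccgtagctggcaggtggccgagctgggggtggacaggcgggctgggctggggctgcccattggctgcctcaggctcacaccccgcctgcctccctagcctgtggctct
Bhlhe41, chr6:145865371-145865670, minus strand: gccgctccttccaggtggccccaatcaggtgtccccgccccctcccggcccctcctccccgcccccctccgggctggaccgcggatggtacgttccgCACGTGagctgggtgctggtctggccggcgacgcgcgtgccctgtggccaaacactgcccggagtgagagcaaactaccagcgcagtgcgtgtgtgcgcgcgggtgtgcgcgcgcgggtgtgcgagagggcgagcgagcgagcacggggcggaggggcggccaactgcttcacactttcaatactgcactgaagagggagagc
Ciart, chr3:95882179-95882478, minus strand: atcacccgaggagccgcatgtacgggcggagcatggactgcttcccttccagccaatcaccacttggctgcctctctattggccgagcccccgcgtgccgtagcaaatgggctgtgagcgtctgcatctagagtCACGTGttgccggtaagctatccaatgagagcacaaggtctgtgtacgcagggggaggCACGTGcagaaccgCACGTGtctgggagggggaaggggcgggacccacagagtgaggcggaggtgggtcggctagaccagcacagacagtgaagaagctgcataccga
The Tef window holds 1 E-box, which starts 127 bases before the start site, and a second annotated Tef start also has 1, at 138 bases. Bhlhe41 has 1, at 153 bases, and Ciart has 3, at 116, 58 and 44 bases. The Dbp window holds none, which says only that these letters are not in this stretch. An E-box was found in 2349 of the 32851 windows of the RefSeq table (7.15%) and in the window of 1210 of the 10338 measured genes that matched it (11.7%). Of the clock output list, 12 genes matched, and 4 of them held it (Tef, Bhlhe41, Ciart and Per1; 33.3%). Among the genes called without female stressed 2 it was in 8 of 88 matched higher genes (9.09%) and in 1 of 25 lower genes (4%). A match describes the letters and was not tested as a binding site.

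Dbp encodes D-site binding protein, one of the most strongly cycling transcription factors of mammalian tissues. Its level was 44.6, 48.1, 42.2, 42.9 and 46.9 CPM in female controls 1 to 5 and 56.8, 43.9, 64.9, 66.3 and 63.05 CPM in stressed females 1 to 5. Among males it was 40.5, 42.5, 39.8, 40.003 and 43.8 CPM in controls and 52.4, 64.4, 62.1, 47.4 and 46.3 CPM in stressed libraries. All 5 stressed males lay above all 5 control males, and 4 of the 5 stressed females lay above every control female; the exception was female stressed 2, inside the control range. The log2 fold change over both pairs was 0.39 (SE 0.07, adjusted p 0.0530), 0.38 in females and 0.39 in males. The male minus female difference in effect was 0.01 (SE 0.14, adjusted p 0.999). Without female stressed 2 the effect was 0.44 (SE 0.06, adjusted p 0.00249).

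Tef, the thyrotroph embryonic factor, is a relative of Dbp. Control females were at 333, 312, 298, 348 and 314 CPM and stressed females at 380.3, 335, 377, 412 and 394 CPM. Control males were at 345, 352, 307, 310.0 and 329 CPM and stressed males at 375, 413, 386, 369 and 363 CPM. The male groups did not overlap, and the female groups overlapped only through female stressed 2. The log2 fold change was 0.23 (SE 0.04, adjusted p 0.0530), 0.24 in females and 0.21 in males, and 0.25 (SE 0.04, adjusted p 0.0107) without that library.

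Bhlhe41 (also called Dec2) encodes a repressor that binds E-boxes. It was at 63.7, 59.9, 58.9, 59.9 and 62.9 CPM in control females and at 75.3, 65.2, 75.5, 72.2 and 67.3 CPM in stressed females. In males it was at 68.4, 64.04, 58.7, 64.6 and 63.8 CPM in controls and at 71.6, 80.6, 75.2, 70.2 and 72.1 CPM in stressed libraries. Here neither pair overlapped, female stressed 2 included, although that library was the lowest of its group. The effect was 0.21 (SE 0.04, adjusted p 0.0530), 0.21 in females and 0.21 in males, and 0.23 (SE 0.04, adjusted p 0.0121) with 19 libraries.

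Hlf, the hepatic leukemia factor, had its larger fold change in males. Its level was 177, 144, 153, 165 and 181 CPM in control females and 173, 160.3, 190.1, 192 and 199 CPM in stressed females, which overlapped. In males it was 149.7, 156, 155, 146 and 147 CPM in controls and 174, 217, 208, 178 and 178 CPM in stressed libraries, with no overlap. The effect was 0.25 (SE 0.05, adjusted p 0.123), 0.16 in females and 0.35 in males. The difference between the pairs was 0.18 (SE 0.10, adjusted p 0.542), so it was not shown to differ.

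**Figure D2:**
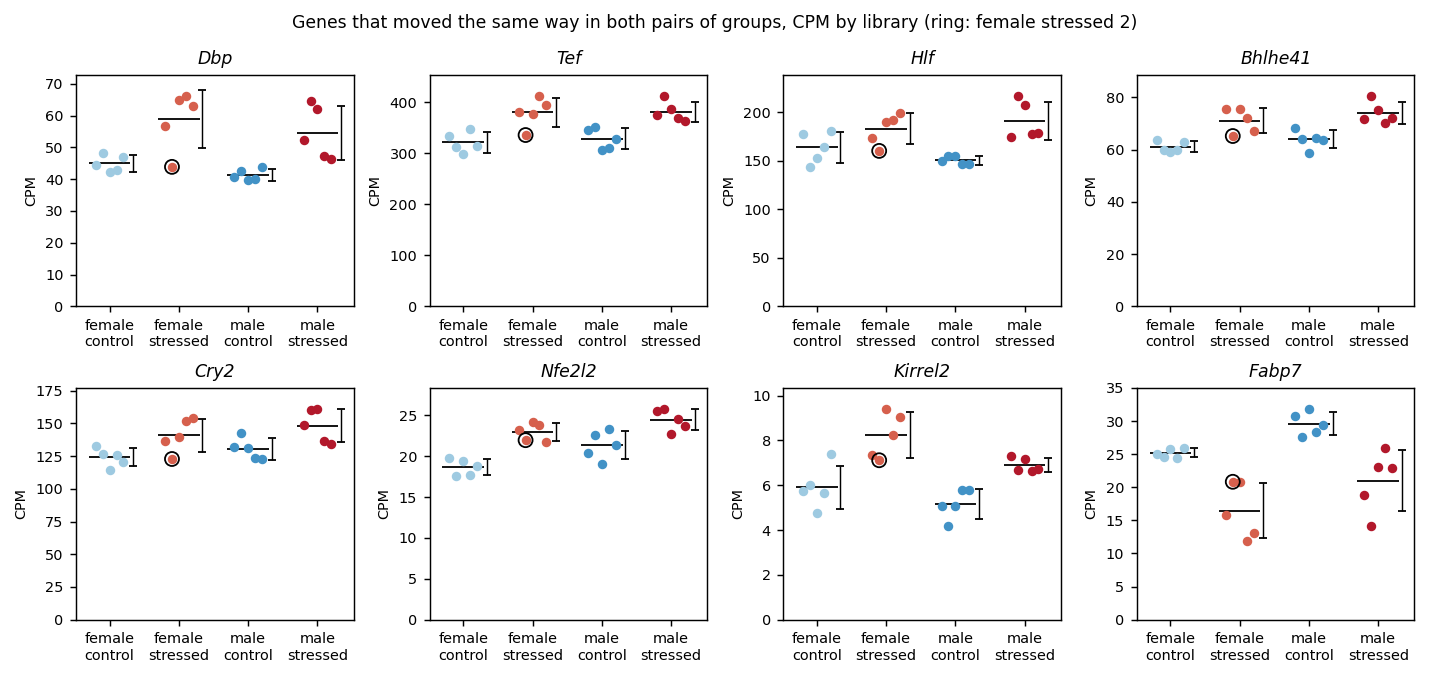
Level in CPM (y axis, from 0) of 8 genes in each library by group; horizontal lines are group means, bars are 1 SD (n = 5), and a ring marks female stressed 2. The stressed groups sit above their controls for 7 genes and below for Fabp7. The ringed library is the stressed female nearest the controls in Dbp, Tef, Hlf, Bhlhe41, Cry2 and Kirrel2. In Fabp7 it is so too, by a small margin over female stressed 3, and in Nfe2l2 it is not.

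Per1, Per2, Ciart and Usp2 were higher in both pairs but were not called, with or without female stressed 2. Per1, a repressor of the loop that glucocorticoids and neural activity also induce, had most of its difference in females: the log2 fold change was 0.25 (SE 0.08, adjusted p 0.264), 0.46 in females and 0.04 in males. Control females ran from 70.5 to 113 CPM and stressed females from 105 to 143 CPM, against 101 to 122 CPM and 96.7 to 135 CPM in control and stressed males. The male minus female difference of Per1 was -0.42 (SE 0.16, adjusted p 0.368). Per2 was at 0.27 (0.37 in females and 0.18 in males), Ciart, a repressor of CLOCK and BMAL1, at 0.23 (0.32 in females and 0.14 in males), and Usp2, a deubiquitinase, at 0.19 (0.11 in females and 0.27 in males); these 3 were named after their values were seen. Their adjusted p without female stressed 2 ran from 0.0597 for Per2 to 0.0875 for Ciart. The REV-ERB genes Nr1d1 and Nr1d2 were at 0.09 and 0.08, with unadjusted p-values above 0.05.

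In the core loop the repressors Cry1 and Cry2 were higher in stressed mice, and the activator genes Arntl and Clock were not. Cry2 was at 133, 126, 115, 126 and 120.4 CPM in control females and at 137, 123, 139.6, 152 and 154 CPM in stressed females. Control males were at 132, 143, 131, 124 and 123 CPM and stressed males at 149, 161, 161, 137 and 134 CPM. The groups of either pair overlapped, in females only through female stressed 2. The log2 fold change of Cry2 was 0.19 (SE 0.05, adjusted p 0.256), 0.18 in females and 0.19 in males, and without that library 0.21 (SE 0.04, adjusted p 0.0399). Cry1 was at 0.22 (SE 0.07, adjusted p 0.256) and at 0.26 (SE 0.06, adjusted p 0.0399) with 19 libraries. Its level in female stressed 2 was 27.4 CPM, below all 5 control females, while the other stressed females ran from 35.4 to 38.6 CPM. Arntl, which encodes BMAL1, was at -0.11 (-0.24 in females and 0.02 in males), Clock at -0.02, and Npas2 at 0.21 (0.08 in females and 0.33 in males). In all, 3 of the 13 core clock genes had an unadjusted p under 0.05 and were higher in both pairs (Cry1, Cry2 and Npas2), and 0 were lower. The shares over all genes were 6.73% and 5%, and the list's median was 0.013. Without female stressed 2 the counts were again 3 and 0, where the shares over all genes were 9.52% and 7.82%. The list's median then changed sign, to -0.019.

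Fabp7 was the lower one of the 6 genes. It encodes the brain fatty acid binding protein of astrocytes and neural progenitors, and its transcript is known to vary with time of day. Its level was 25.01, 24.6, 25.8, 24.5 and 25.99 CPM in control females and 15.9, 20.8, 20.8, 11.8 and 13.1 CPM in stressed females. Male controls were at 30.8, 27.6, 31.8, 28.4 and 29.4 CPM and stressed males at 18.8, 14.1, 23.1, 25.98 and 22.9 CPM. No stressed library reached its controls in either pair. The log2 fold change was -0.54 (SE 0.10, adjusted p 0.0530), -0.61 in females and -0.46 in males, and -0.60 (SE 0.10, adjusted p 0.0108) without female stressed 2. AGGTCA, searched on both strands, is only the core of the element that REV-ERB and ROR receptors bind. A match describes the letters and was not tested as a binding site. In the start region of Fabp7 the letters lie 171 bases before the start:
Fabp7, chr10:57784673-57784972, plus strand: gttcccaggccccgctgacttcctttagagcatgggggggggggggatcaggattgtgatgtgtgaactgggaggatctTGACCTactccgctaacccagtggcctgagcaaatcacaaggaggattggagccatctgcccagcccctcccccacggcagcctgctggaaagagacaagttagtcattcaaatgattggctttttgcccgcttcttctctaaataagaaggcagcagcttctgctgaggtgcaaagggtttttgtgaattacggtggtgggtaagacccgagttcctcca
The same letters were in 16.3% of all windows, in 14.2% of the matched measured genes, in 7 of the 25 matched genes that were lower without female stressed 2 (28%) and in 13 of the 88 that were higher (14.8%). They were also in 3 of the 12 matched clock output genes (25%). Of the 12 astrocyte markers, 1 had an unadjusted p under 0.05 and was higher in both pairs and 0 were lower, with a median of -0.02. With 19 libraries, female stressed 2 left out, 1 was higher and 2 were lower, with a median of -0.03. Over all genes 6.73% were higher and 5% lower with 20 libraries, and 9.52% and 7.82% with 19.

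Kirrel2, an adhesion protein of the nephrin family, was at 5.73, 6.02, 4.75, 5.65 and 7.37 CPM in control females and at 7.33, 7.11, 9.40, 8.26 and 9.06 CPM in stressed females. Male controls were at 5.08, 4.17, 5.06, 5.77 and 5.78 CPM and stressed males at 7.32, 6.69, 7.16, 6.61 and 6.74 CPM. The male groups did not overlap, and the female groups did, since control female 5 exceeded stressed females 1 and 2. Its log2 fold change was 0.43 (SE 0.08, adjusted p 0.0530), 0.49 in females and 0.37 in males, and 0.46 (SE 0.08, adjusted p 0.0170) with 19 libraries. Nfe2l2 encodes NRF2, the factor that switches on antioxidant genes. Its level was 17.6 to 19.8 CPM in control females, 21.7 to 24.2 CPM in stressed females, 19.1 to 23.3 CPM in control males and 22.7 to 25.8 CPM in stressed males. Only the female pair was free of overlap, and female stressed 2, at 21.97 CPM, sat within its group. The effect was 0.23 (SE 0.04, adjusted p 0.0530), 0.29 in females and 0.18 in males, and 0.24 (SE 0.05, adjusted p 0.0320) without that library.

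Every stressed library lay beyond every control in both pairs for 5 genes (0.0385% of all): Bhlhe41, D630003M21Rik and Dlst were higher (0.0231%), and Fabp7 and Wfdc1 were lower (0.0154%). Dlst, a subunit of the 2-oxoglutarate dehydrogenase complex of the citric acid cycle, differed by 0.08 (SE 0.03, adjusted p 0.278), a small change with narrow groups: 101 to 116 CPM in control and 117 to 119 CPM in stressed females, 105 to 111 and 112 to 117 CPM in the males. Wfdc1, a secreted protein, was at -0.30 (SE 0.07, adjusted p 0.246), and D630003M21Rik at 0.20 (SE 0.06, adjusted p 0.260). Without female stressed 2 there were 13 such genes (0.1%), 11 higher (0.0847%) and 2 lower (0.0154%). Dbp, Tef, Mgll, Dusp18, Ptcd1, Bcor and Hp1bp3 were among those that joined the 5. Mgll encodes the lipase that breaks down the endocannabinoid 2-AG and was at 0.20 with 20 and 0.24 (SE 0.05, adjusted p 0.0399) with 19 libraries. In females alone 158 genes (1.22%) and in males alone 558 genes (4.3%) had groups that did not overlap.

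Among the other higher genes with the smallest p, Id3, an inhibitor of helix-loop-helix factors, was at 0.27 (SE 0.06, adjusted p 0.146) and Agfg2, an ARF GTPase-activating protein, at 0.27 (SE 0.06, adjusted p 0.164). Agfg2 was at 50.8, 46.98, 43.1, 47.1 and 46.5 CPM in control females and 49.9, 43.7, 58.3, 62.1 and 58.3 CPM in stressed females, and at 40.5, 43.2, 41.95, 44.3 and 45.3 and 52.8, 60.4, 57.5, 49.99 and 49.4 CPM in control and stressed males. Again the males were apart, and the stressed females, without female stressed 2 and 1, lay above their controls. Hspa2, of the HSP70 chaperone family, was at 0.24 (0.26 in females and 0.22 in males), Palm, a membrane protein of neurites, at 0.21, Nfyc, a subunit of the CCAAT-binding factor NF-Y, at 0.18, Tmcc1 at 0.14 and Neurl1b, a ubiquitin ligase of Notch ligands, at 0.27. Their adjusted p with 20 libraries ran from 0.164 to 0.202, and all 7 were called without female stressed 2, at adjusted p-values from 0.0107 to 0.0457.

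Among the lower genes, Zbtb25, a zinc finger protein, was at -0.23 (SE 0.05, adjusted p 0.182) with the same size in both pairs (-0.22 in females and -0.24 in males), and Plk3, a polo-like kinase, was at -0.27 (SE 0.06, adjusted p 0.202). Sema3c, a secreted guidance cue, was at -0.27 (-0.28 in females and -0.26 in males), Lancl3 at -0.30, Haghl at -0.16, and Vamp1, a fusion protein of synaptic vesicles, at -0.29 (-0.15 in females and -0.43 in males). Slc20a2, a phosphate transporter, was at -0.13 (-0.21 in females and -0.05 in males). All 7 were called without female stressed 2, with adjusted p-values from 0.0399 for Vamp1 to 0.0466 for Zbtb25. Gm9776, Nmrk1, a nicotinamide riboside kinase, and Mmrn2, a matrix protein of endothelium, were at -0.41, -0.39 and -0.35 and were not called with 19 libraries either. None of these 3 exceeded 6.49 CPM in any library.

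The number of calls turned on female stressed 2. With 1 library left out at a time, 18 of the 20 fits called 0 genes, the fit without male stressed 4 called 3 (Bhlhe41, Dbp and Fabp7), and the fit without female stressed 2 called 150. Of those 150, 149 already had an unadjusted p under 0.05 with all libraries, and the median size of their log2 fold change went from 0.252 to 0.291. Over all genes 12.7% had such a p with all libraries, and 19 libraries are common to both fits. With female stressed 2 and 1 further library left out, the number of calls ran from 4 to 503, with a median of 10. It was 503 without male stressed 5, 470 without female control 1 and 390 without female stressed 1, and 4 without female stressed 3. In all 19 of these fits 4 genes were called: Agfg2, Dbp, Fabp7 and Tef. Bhlhe41 was called in 18, Kirrel2 in 17, Gdpd2 in 16, Hlf in 13, Neurl1b in 11, and Akap12 and Nfe2l2 in 10 each.

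**Figure D3:**
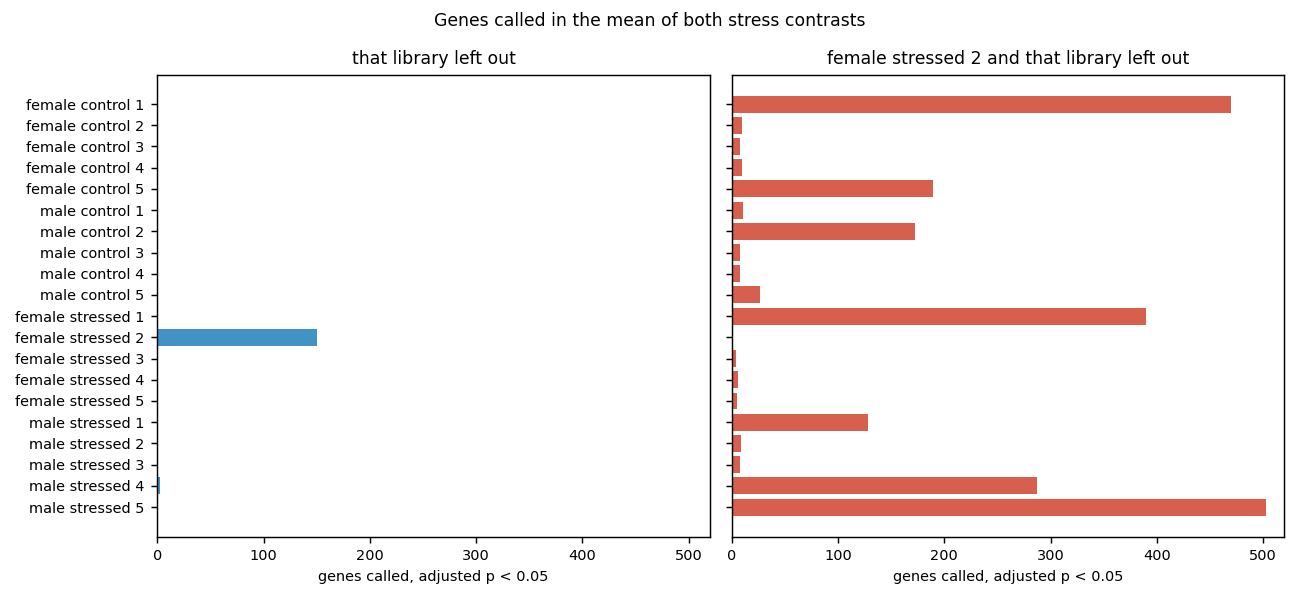
Number of genes called in the mean of both contrasts (x axis, adjusted p under 0.05) when the library named on the y axis was left out alone (left) or with female stressed 2 (right). Only the fits without female stressed 2 (150 genes) and without male stressed 4 (3 genes) gave any call on the left, and on the right the number ran from 4 to 503.

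The 150 genes called without female stressed 2 all had the same sign in both pairs, and 99 of them had an unadjusted p under 0.05 in each pair. Over all genes, 1.97% had such a p in each pair with one sign, and 52.5% had the same sign with 20 libraries. The agreement follows in part from the choice of genes, since a call rests on the mean of the same 2 contrasts. The effect of the 150 was larger in males, with a median size of 0.345 against 0.226 in females. Among the higher ones were 6 of the 18 striatal marker genes: Penk (enkephalin), Drd2 (a dopamine receptor), Ppp1r1b (DARPP-32), Rasd2, Gng7 and Serpina9. Of all genes, 0.909% were called higher. Over the whole list, 11 of 18 had an unadjusted p under 0.05 and were higher in both pairs with 20 libraries, and 18 of 18 with 19 libraries. The shares over all genes were 6.73% and 9.52%. The striatal list's median was 0.35 over both pairs, 0.05 in females and 0.66 in males, and 0.19 in females without female stressed 2. The striatal score did not overlap in males, where controls ran from -0.567 to -0.198 and stressed libraries from -0.0122 to 0.600, and overlapped in females, where controls ran from -0.467 to 0.406 and stressed libraries from -0.481 to 0.595. Female stressed 2, at -0.481, was the lowest of the stressed libraries, while the other stressed females ran from -0.0626 to 0.595. Since these are bulk libraries of dissected tissue, a change in the share of cells of a type and a change in RNA per cell cannot be told apart.

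With the striatal score as a covariate no gene was called, with or without female stressed 2 (unadjusted p under 0.05 and same sign: 431 genes with 20 libraries). The median log2 fold change of the 118 higher genes went from 0.253 to 0.0712, and that of the 32 lower genes from -0.250 to -0.112. Of the genes with the smallest p, Dbp was at 0.23 with the covariate, Tef at 0.16, Bhlhe41 at 0.18 and Hlf at 0.14. Kirrel2 was at 0.33, Nfe2l2 at 0.23 and Fabp7 at -0.42. The adjusted p-values of these genes with the covariate were 0.734 or higher. Among other clock genes, Per2 and Ciart were each at 0.14, Cry1 at 0.10, Cry2 at 0.09, Per1 at 0.07, Usp2 at 0.04 and Npas2 at -0.01. In males the score did not overlap between control and stressed libraries, so there the covariate and stress cannot be told apart. Penk was at 0.06, from 0.32 without it, and Gabrd at 0.00, from 0.40. The part of the striatal markers in the shared effect was not tested beyond this covariate. With the thalamic score as the covariate instead, 0 genes were called as well, with or without female stressed 2.

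Among the named genes, Oxt moved most when female stressed 2 was left out. It encodes oxytocin and marks cells of the neighbouring hypothalamus and preoptic area. It was at 4.26, 7.98, 9.44, 13.2 and 5.32 CPM in control females and at 3.48, 28.2, 2.19, 2.67 and 3.14 CPM in stressed females, so that female stressed 2 alone stood above all others. Control males were at 3.88, 7.53, 13.5, 9.72 and 6.57 CPM and stressed males at 5.59, 2.38, 2.03, 5.73 and 4.79 CPM. Its log2 fold change was -0.34 (SE 0.41, adjusted p 0.775) with 20 libraries (0.28 in females and -0.96 in males) and -1.15 (SE 0.24, adjusted p 0.0399) without that library (-1.34 in females). On the list of 9 hypothalamic and preoptic markers, 0 had an unadjusted p under 0.05 with one sign in both pairs (11.7% of all genes). Without female stressed 2, 5 were lower and 0 higher, where the shares over all genes were 7.82% and 9.52%. That library had the highest score on this list and the highest Oxt, a member of it. The lower values without it therefore follow in part from which library was left out. The score of that list was 0.745 in female stressed 2 and at most 0.376 in the other libraries, and the thalamic score was 0.389 against at most 0.177. Gdpd2, a glycerophosphodiester phosphodiesterase, showed a like pattern: 27.3 CPM in female stressed 2 against 13.9 to 16.7 CPM in the other stressed females, and a log2 fold change of -0.32 with 20 and -0.44 (SE 0.08, adjusted p 0.0170) with 19 libraries. Akap12, a scaffold of protein kinase A, was at -0.32 and -0.39, and Nefm, the medium neurofilament subunit, at -0.29 and -0.34.

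**Figure D4:**
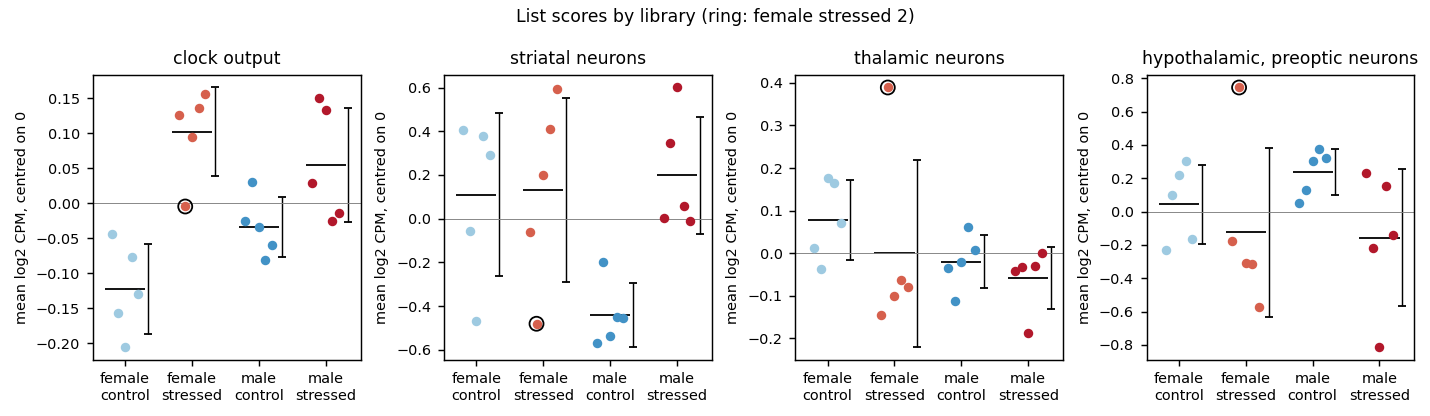
Score of 4 gene lists (y axis, mean log2 CPM of the list centred on 0) in each library by group, with group means and 1 SD (n = 5); the ring marks female stressed 2. That library is the highest of all on the thalamic (0.389) and hypothalamic and preoptic (0.745) lists and the lowest stressed library on the striatal list (-0.481), and it is the lowest stressed female on the clock output list.

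Of 23 genes of GABA signalling, 6 had an unadjusted p under 0.05 and were lower in both pairs, and 1 was higher, where the shares over all genes were 5% and 6.73%. These numbers were 6 and 2 without female stressed 2, where the shares over all genes were 7.82% and 9.52%. Among the lower ones were the receptor subunits Gabra3 (-0.16), Gabrg1 (-0.16) and Gabrq (-0.22) and the astrocyte GABA transporter Slc6a11 (-0.19). None of the 6 lower genes was called with 20 or with 19 libraries; with 19 the smallest adjusted p was 0.0874 for Slc6a11. The higher gene was Gabrd, the subunit of extrasynaptic receptors. Gabrd was at 73.7, 51.5, 39.6, 61.7 and 68.5 CPM in control females and at 50.6, 34.3, 68.3, 74.8 and 81.4 CPM in stressed females, and at 35.8, 45.9, 38.2, 39.1 and 40.3 and 57.9, 70.5, 85.6, 58.7 and 54.2 CPM in control and stressed males. The males did not overlap and the females did, with a log2 fold change of 0.40 (SE 0.13, adjusted p 0.270) (0.08 in females and 0.72 in males) and 0.48 (SE 0.11, adjusted p 0.0432) without female stressed 2. Gabra4, which joins Gabrd in such receptors, was called as well without that library (adjusted p 0.0494), and its sign in females was negative with it (-0.05). The enzymes Gad1 and Gad2 were at -0.03 and -0.07. The list's median was -0.07.

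Peptides and their receptors differed in both directions. Penk was at 897, 694, 559, 787 and 929 CPM in control females and 789, 561, 947, 929 and 1005 CPM in stressed females, and at 514, 612, 511, 607 and 619.9 and 750.2, 940.5, 954, 741 and 689.7 CPM in control and stressed males. The male groups were apart and the female groups overlapped, at a log2 fold change of 0.32 (SE 0.10, adjusted p 0.256) (0.13 in females and 0.51 in males) and of 0.38 (SE 0.09, adjusted p 0.0432) without female stressed 2. Npy was at 0.17 with 20 and 0.19 with 19 libraries, and Tac2, neurokinin B, at -0.33 (-0.10 in females and -0.56 in males) and -0.37. Among receptors, Oxtr, the oxytocin receptor, was lower to a like degree in both pairs: its effect was -0.24 (SE 0.07, adjusted p 0.256) (-0.25 in females and -0.23 in males), and -0.25 (SE 0.07, adjusted p 0.0762) without female stressed 2. Control females ran from 15.4 to 18.4 CPM and stressed females from 12.4 to 15.3 CPM, which did not overlap, and the males overlapped (15.6 to 21.7 against 12.1 to 17.8 CPM). Tacr3, the neurokinin B receptor, was at -0.24 (-0.15 in females and -0.32 in males), Sstr1 at -0.16 and Vipr1 at 0.37 (0.34 in females and 0.39 in males). With 19 libraries these 3 were at -0.23, -0.21 and 0.44. In these lists 2 of 15 peptide genes were higher and 1 lower, and 1 of 24 receptor genes higher and 3 lower, at an unadjusted p under 0.05 with one sign in both pairs. The shares over all genes were 6.73% higher and 5% lower. The peptides had 4 higher and 5 lower without female stressed 2, and the receptors 3 higher and 4 lower, where the shares over all genes were 9.52% and 7.82%. The peptide score of female stressed 2 was 0.325, the highest of the 20.

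Channel, glutamate and vesicle genes were called in 2 cases without female stressed 2, Kcnq5 higher and Vamp1 lower, and in 0 with it. Of all genes, 1.15% were called without that library. Kcnq5, a subunit of the M-current potassium channel, was at 0.26 (SE 0.09, adjusted p 0.270), 0.14 in females and 0.38 in males, and at 0.31 (SE 0.07, adjusted p 0.0448) with 19 libraries. Of 44 voltage-gated channel genes, 8 had an unadjusted p under 0.05 and were higher in both pairs and 4 were lower, with Kcnj4 at 0.29, Kcnc1 at -0.14 and Hcn3 at -0.16. Of 37 glutamate signalling genes, 5 were higher and 3 lower: the scaffold Shank3 was at 0.24, the kainate receptor subunit Grik5 at 0.11, the NMDA receptor subunit Grin3a at -0.21 and the AMPA receptor subunit Gria4 at -0.10 (-0.10 in females and -0.10 in males). Of 32 vesicle release genes, 3 were higher and 3 lower, among them Doc2b at 0.21, Sv2b at 0.16 and Rab3c at -0.12. The shares over all genes were 6.73% higher and 5% lower. Leaving out female stressed 2 gave 13 higher and 9 lower channel genes, 8 and 5 genes of glutamate signalling and 4 and 3 of vesicle release. The shares over all genes were then 9.52% and 7.82%. With the striatal covariate Kcnj4 was at -0.01, Kcnq5 at 0.03, Shank3 at 0.04, Doc2b at 0.02 and Sv2b at 0.01.

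Of 37 extracellular matrix genes, 6 had an unadjusted p under 0.05 and were lower in both pairs, and 2 were higher, where the shares over all genes were 5% and 6.73%. The counts became 9 lower and 2 higher without female stressed 2, where the shares over all genes were 7.82% and 9.52%. The list's median was -0.02 in either fit. Hapln2, a link protein at nodes of Ranvier, was at -0.25 (SE 0.07, adjusted p 0.256) (-0.26 in females and -0.24 in males) and was called without female stressed 2 (-0.28, adjusted p 0.0448). Its level ran from 33.8 to 39.1 CPM in control and 23.8 to 33.6 CPM in stressed females, and from 30.2 to 35.8 and 24.9 to 34.7 CPM in control and stressed males. The basement membrane collagens Col15a1, Col4a1 and Col4a2 were at -0.31, -0.19 and -0.18, larger in males (-0.46, -0.25 and -0.31) than in females (-0.17, -0.12 and -0.05), a difference with unadjusted p-values above 0.05. None of these 3 was called with 20 or 19 libraries. Hapln4, of perineuronal nets, and Nid1, a basement membrane linker, were at -0.32 and -0.17. Beside these, the oligodendrocyte markers had 4 lower and 0 higher of 15, with a median of -0.13 (-0.26 in females and -0.02 in males), and the endothelial markers 2 higher and 1 lower of 12. With 19 libraries the oligodendrocyte markers had 5 lower and 0 higher, and the endothelial ones again 2 higher and 1 lower. The part of either in the matrix genes was not tested.

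In the lists tied to cellular stress and to basic cell functions, genes are counted here as higher or lower when they had an unadjusted p under 0.05 and that sign in both pairs. By this rule 6.73% of all genes were higher and 5% lower, and 9.52% and 7.82% without female stressed 2. Of 19 immediate early genes, 1 was lower (Nr4a2, -0.29) and 0 were higher, with a median of 0.11, and without female stressed 2, 1 was lower and 4 were higher, with a median of 0.16. Fos was at -0.13 (0.12 in females and -0.39 in males), and at -0.12 with 19 libraries. Heat shock genes had 2 of 17 lower, Hsp90aa1 (-0.13, -0.12 in females and -0.14 in males) and Hspe1 (-0.19), and 0 higher. The unfolded protein response had 2 higher (Pdia4, 0.13, and Atf6, 0.17) and 2 lower (Canx, -0.12, and Hsp90b1, -0.08) of 17. The integrated stress response and the proteasome, with 12 and 31 genes, had 0 in either direction. The cytosolic ribosome and oxidative phosphorylation, with 71 and 46 genes, had 1 lower and 0 higher each. By sign alone, with no threshold on p, 49 of the 71 ribosomal genes were lower in both pairs and 9 higher, with a median of -0.05, and 21 of the 46 oxidative phosphorylation genes were lower and 3 higher, with a median of -0.04. Over all genes 27.7% were lower and 24.8% higher in both pairs by sign. Members of a list are measured in the same libraries, so they are not independent counts. The scores of both lists overlapped between control and stressed libraries in either pair. The mean ribosome score was -0.016 (SD 0.136) in control and -0.036 (SD 0.236) in stressed females. It was 0.072 (SD 0.073) in control and -0.020 (SD 0.283) in stressed males. Rps15a and Hspe1 have processed copies in the genome, so their counts are uncertain. Of 28 splicing factors 5 were lower and 1 higher, with Hnrnpa2b1 at -0.13 and Tra2b at 0.09, and of 22 cholesterol synthesis genes 2 were higher and 1 lower. The counts of these lists were the same without female stressed 2, apart from the immediate early genes and from cholesterol synthesis, with 1 higher and 1 lower.

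**Figure D5:**
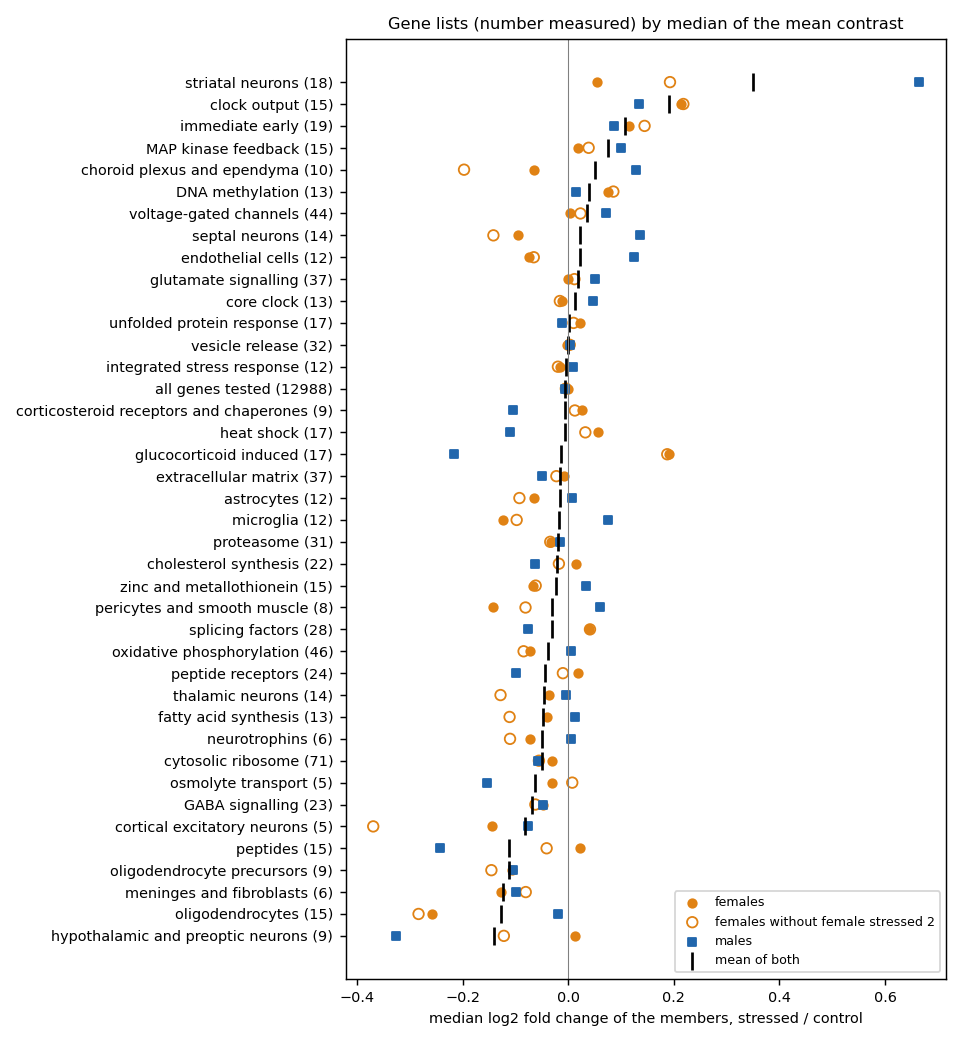
Median log2 fold change of stressed over control (x axis) for each list with at least 5 genes measured (y axis), in females with and without female stressed 2, in males, and in the mean of both. The striatal markers (0.35) and the clock output genes (0.19) have the highest medians of the mean, and the glucocorticoid-induced genes have opposite signs in females (0.19) and males (-0.22).

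Crh and 12 of the 17 listed glucocorticoid-induced genes had opposite signs in the pairs, as had 6166 of all 12988 genes. Crh was at -0.23 (SE 0.10, adjusted p 0.342), 0.05 in females and -0.50 in males, and at -0.20 (SE 0.10, adjusted p 0.286) without female stressed 2, with a male minus female difference of -0.55 (SE 0.19, adjusted p 0.354). In control and stressed females it ran from 14.5 to 17.7 and 11.4 to 22.1 CPM, and in control and stressed males from 23.3 to 25.7 and 13.2 to 21.6 CPM, so that the males did not overlap. The glucocorticoid-induced list had 4 of 17 genes higher in both pairs by sign, 1 lower and 12 with opposite signs. Over all genes 24.8% were higher and 27.7% lower in both pairs by sign. The list's medians were 0.19 in females and -0.22 in males. At an unadjusted p under 0.05, 1 was higher (Per1) and 1 lower (Errfi1, -0.13) in both pairs, with 20 and with 19 libraries. The shares over all genes were 6.73% and 5% with 20, and 9.52% and 7.82% with 19. Fkbp5, a co-chaperone of the glucocorticoid receptor that the receptor induces, was at 0.11 (SE 0.07, adjusted p 0.521) with 20 and 0.14 with 19 libraries, and Nr3c1, the receptor itself, at -0.00281 (SE 0.03) and -0.01. Slc5a3, an inositol transporter, was called without female stressed 2 (adjusted p 0.0457) on the strength of the males (-0.04 in females and -0.35 in males). Over all genes the difference between the pairs was called for 0 of 12988, with 1347 at an unadjusted p under 0.05.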

How the data were processed

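RNA of 20 pooled tissue libraries was sequenced from a stranded mRNA kit, per the labels' protocols. The deposited table holds raw counts per gene symbol, made by the authors with STAR and featureCounts on mm10, per the submitters' processing notes; versions, annotation, strand setting and filter are not given in the sources used here. All 12988 rows had totals of at least 1002 counts, and rarer genes were not analysed here.

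Counts were fitted with edgeR 4.0.16 (R 4.3.3; TMM, 1 mean per group, quasi-likelihood, filterByExpr, which kept all genes). The shared effect is the mean of the female and male contrasts; tests are two-sided, with Benjamini-Hochberg adjustment over all genes. Log2 CPM used a prior count of 2. Depth limits low genes most. No batch is given in the labels. Alternatives used DESeq2 1.42.0, limma 3.58.1, sva 3.50.0, covariates, a replicate block and libraries left out. The fitting was tested on simulated data.

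Named genes are the 12 with the smallest p in each direction, the 8 per direction called without female stressed 2, those without overlap in both pairs, up to 4 per pathway list with an unadjusted p under 0.05 and one sign, and Crh, Fkbp5, Fos and Nr3c1. Other genes were named after their values were seen. Some genes are not reported here. The members and the 41 lists were chosen with earlier results of these data known. Gene starts are from RefSeq, GRCm38.p6, the build of mm10.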

Additional observations from a re-analysis of the deposited data

Results flagged for a closer look

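In groups of 5 libraries a value was set aside for a closer look when its gap to the nearest of the other 4 exceeded 0.71 of the group's whole range (Dixon's 95% value). The search covered the named genes and the scores of 4 lists: clock output, striatal, thalamic, and hypothalamic and preoptic. In all, 384 groups were looked at and 20 had such a value, where chance gives about 1 in 20. Of the 20, 8 were values of female stressed 2. That library was far above the other stressed females in Oxt (28.2 CPM), Gdpd2 (27.3 CPM), Trpm3, a cation channel (157 CPM), Hnrnpa2b1 (358 CPM) and the thalamic score (0.389). It was far below them in Cry1 (27.4 CPM), Neurl1b (32.4 CPM) and Tmcc1 (90.3 CPM). In each of these 8 the value of female stressed 2 lay on the side of the female controls. Some of the named genes were chosen for being called without that library. In 94% of the 150 genes so called, female stressed 2 was the stressed female nearest the control side, against 36.3% of all genes. The number of its flags and their side therefore follow in part from how the genes were chosen.

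The other 12 values were spread over 10 libraries. Haghl was apart in female control 5 (38.2 CPM), male control 3 (43.1 CPM) and male stressed 2 (32.6 CPM). Single values were Col15a1 in male stressed 2 (5.72 CPM), Grik5 in female control 3 (166 CPM), Plk3 in female stressed 5 (8.86 CPM), Rab3c in male control 1 (596 CPM) and Sema3c in female control 4 (36.1 CPM). Further ones were Shank3 in male control 2 (262 CPM), Slc39a6 in male stressed 3 (45.9 CPM), Srebf2 in male stressed 5 (198 CPM) and the thalamic score of male stressed 3 (-0.186).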

How the results depend on the processing

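The 0 calls of the shared effect held with limma-voom, the robust option, no filter on low counts, a minimum mean of 10 CPM, the replicate block and the striatal, thalamic, oligodendrocyte and hypothalamic covariates, the last added after seeing the data. There were 5 calls with DESeq2 size factors, with an additive model and with 1 surrogate variable, and 14 with DESeq2. Leaving out 1 library, or female stressed 2 and 1 more, gave 0 to 503 calls. Without female stressed 2, calls numbered 437 with DESeq2, 171 with its size factors, 187 with limma-voom (added after seeing the data), 9 with the oligodendrocyte covariate and 7 with the replicate block. They numbered 0 without that library with the striatal covariate and with the thalamic one, the latter fit added after seeing the data. Same-numbered libraries did not deviate together (30 pairs, r from -0.473 to 0.237, 5 above 0.1), so the block does not stand for pairing.

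The genes of one sign, 1523, fell to 431 with the striatal covariate (423 without female stressed 2) and 733 with the hypothalamic one, and numbered 970 without female stressed 2 with the thalamic covariate and 2365 without it with limma-voom. Libraries left out gave 957 to 2592. The 81 genes with an unadjusted p under 0.05 in each pair became 25 with the striatal covariate, with or without female stressed 2, and 36 with the hypothalamic one. Without female stressed 2 they were 239 with DESeq2, 252 with its size factors, 277 with limma-voom, 135 with the oligodendrocyte covariate and 218 with the block. Libraries left out gave 36 to 381. The 5 genes without overlap, a count that no covariate touches, became 13 in the fits without female stressed 2 with the striatal, oligodendrocyte or thalamic covariate, and 5 to 32 with libraries left out.

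Of the named genes' values, 25 changed sign. With the striatal covariate Oxt was at 0.26, Npas2 at -0.0148, Kcnj4 at -0.00973, Fkbp5 at -0.00633 and Nr3c1 at 0.0300. With that covariate and without female stressed 2, Npas2 was at -0.00111, Gabrg1 at 0.0452, Gabrq at 0.0495, Fkbp5 at -0.0186 and Nr3c1 at 0.0391. Nr3c1 was also at 0.0132 with the thalamic, 0.023 with the oligodendrocyte and 0.0183 with the hypothalamic covariate, at 0.0209 and 0.0736 without female stressed 2 with the oligodendrocyte and thalamic ones, and from -0.0198 to 0.0121 with libraries left out. The causes were not tested. The totals per library limit the precision of genes of a few CPM most.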
